A study of Mus musculus with 12 samples.

Results

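Small RNA of whole blood was compared between 3 mice given DSS (dextran sulfate sodium, a polymer that injures the colon epithelium when drunk) and 3 control mice. These are 6 of the 12 small RNA libraries of the series, and the other 6 come from the colon of the same mice. The libraries were taken by their names and grouped as in the figures of the study, with mice 1, 7 and 9 as DSS and mice 2, 4 and 8 as control, and all 1978 miRNA names of the count table were read. All animals were male wild-type C57BL/6 mice, 8 weeks old when obtained. DSS mice drank 1.5% (wt/vol) DSS for 7 days and control mice drank the same water without it, and every animal was sacrificed on day 8. The sequenced mice had been picked from 10 by a disease activity index of weight loss, stool and bleeding, so the groups were chosen to differ in disease.

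The disease-state labels of the libraries go against this grouping. By the labels, colitis mice are 1, 2 and 4 while 7, 8 and 9 are controls, and every direction below rests on the grouping of the figures. Under the label grouping DESeq2's Wald test called 1 miRNA, let-7g-5p, with a log2 fold change of 1.63 (adjusted p = 0.0407), and edgeR's quasi-likelihood test called 0 with 14 at an unadjusted p under 0.05. The source and tissue fields also name opposite tissues for each library. The erythroid miRNA miR-451a was at 8321 to 14271 CPM (counts per 1M after TMM scaling, here over all 12 libraries) in the libraries used here as blood and at 191 to 425 CPM in those used as colon. The epithelial miRNA miR-215-5p was at 20.3 to 49.1 CPM in the former and at 7968 to 23393 CPM in the latter.

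miRNAs are short RNAs that guide the silencing machinery to messenger RNAs, mainly through the seed near their 5′ end, so miRNAs with one seed share many potential targets. Each precursor hairpin gives a 5p and a 3p strand, of which one is usually kept and the other mostly degraded. In whole blood most miRNA comes from red cells and platelets, with a share from leukocytes, and traces from liver, endothelium, muscle or gut epithelium also circulate.

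The mature strands on which the comparison turns are shown as the count table gives them, with the seed (bases 2 to 8) in capitals. The let-7 strands are shown because they share a seed and most of them were lower in DSS blood:
let-7a-5p: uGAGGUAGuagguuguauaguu
let-7b-5p: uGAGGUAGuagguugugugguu
let-7c-5p: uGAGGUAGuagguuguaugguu
let-7d-5p: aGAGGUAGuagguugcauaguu
let-7e-5p: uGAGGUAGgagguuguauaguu
let-7f-5p: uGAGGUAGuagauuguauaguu
let-7g-5p: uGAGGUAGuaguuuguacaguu
let-7i-5p: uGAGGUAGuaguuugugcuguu
miR-98-5p: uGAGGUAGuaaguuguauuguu

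Each let-7 strand differs from its nearest relative above by 1 or 2 bases, so a read with a sequencing error can be counted for a relative. Of the other 8 strands called with DESeq2, whose seeds differ from each other, 7 are shown here, and miR-122-5p is given by its values only:
miR-149-5p: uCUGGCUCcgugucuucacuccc
miR-223-3p: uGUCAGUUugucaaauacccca
miR-139-3p: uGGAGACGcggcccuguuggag
miR-126a-3p: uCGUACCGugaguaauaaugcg
miR-16-5p: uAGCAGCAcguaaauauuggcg
miR-374b-5p: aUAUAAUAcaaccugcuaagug
miR-215-5p: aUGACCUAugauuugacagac

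Strands of gut epithelium and of the miR-17-92 group that are described below are shown for their seeds. miR-192-5p has the seed of miR-215-5p, the seed of miR-196b-5p is that of let-7 moved on by one base, and miR-17-5p and miR-20a-5p share theirs:
miR-192-5p: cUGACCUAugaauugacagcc
miR-194-5p: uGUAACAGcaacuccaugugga
miR-196b-5p: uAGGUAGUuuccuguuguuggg
miR-17-5p: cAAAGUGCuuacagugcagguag
miR-20a-5p: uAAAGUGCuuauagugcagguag

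The total count of a blood library was 21.1M to 32.9M, and 484 of the 1121 miRNAs with any count in blood passed the filter on low counts. The identical strands miR-486a-5p and miR-486b-5p, both erythroid, took 74.7% to 83.0% of the counts of a library. Reads of this sequence were counted under both names, and with each sequence counted once it took 61.5% to 71.0% of a total of 12.6M to 19.4M. DSS mouse 1 stood apart on the first principal component (40.1% of the variance, rlog values) with a score of −8.70 against −0.41 to 4.31 in the other mice. Control mouse 2 stood apart on the second (23.6%) with a score of 6.62 against −2.85 to 0.26. The groups overlapped on both components.

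Tested on TMM-scaled counts with the quasi-likelihood test of edgeR, 0 of the 484 miRNAs were SDE (significantly differentially expressed, with a fold change over 1.5 and an adjusted p no larger than 0.05). The smallest adjusted p was 0.137, that of miR-149-5p. Before adjustment 56 miRNAs (11.6%) had a p under 0.05, 14 of them higher (2.89%) and 42 lower (8.68%) in DSS mice. The values of the groups did not overlap for 84 miRNAs (17.4%), 36 higher (7.44%) and 48 lower (9.92%). DESeq2's Wald test, the test of the study's methods, called 10 of the 295 miRNAs that kept an adjusted p there (3.39%), 3 higher (1.02%) and 7 lower (2.37%). The median log2 fold change over all 484 was −0.05 with TMM factors and 0.15 when libraries were scaled by total counts alone. Single miRNAs moved by unequal amounts between these scalings. In whole blood, fewer cells of a type and less of a miRNA per cell cannot be told apart.

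**Figure D1:**
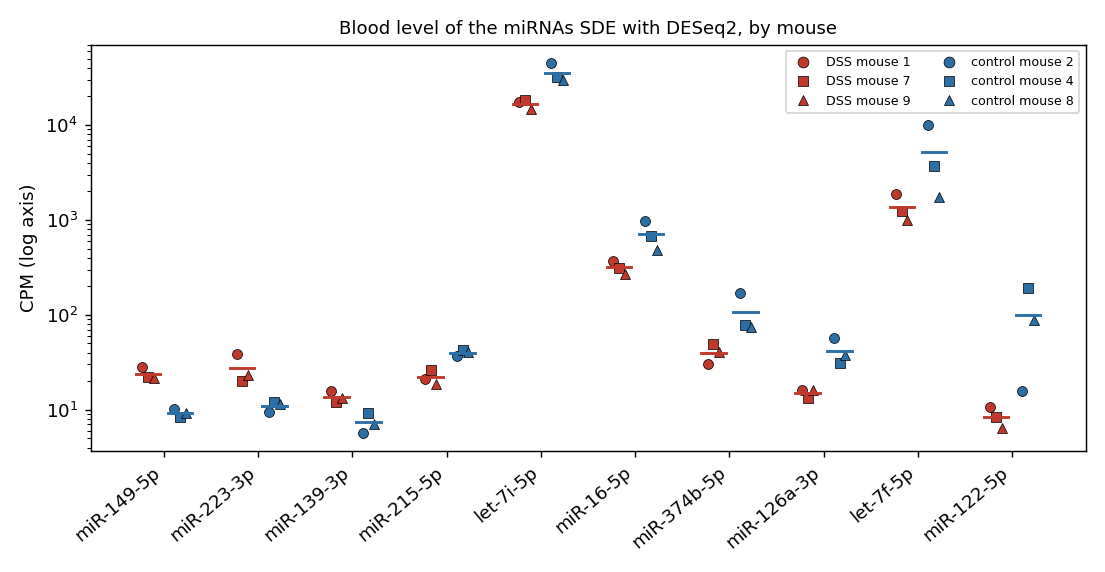
Level in blood of the 10 miRNAs SDE with DESeq2, in CPM on a log axis, with one point per mouse and a line at the mean of each group of 3. The groups are apart for 9 of them, and only for let-7f-5p does a control mouse (8, at 1748) fall below a DSS mouse (1, at 1874).

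Higher in DSS mice were strands of different seeds and loci. miR-149-5p, from an intron of the heparan sulfate proteoglycan gene Gpc1 (RefSeq hairpin on GRCm38.p6, chr1:92850378-92850443, plus strand), was at 28.5, 22.1 and 21.7 CPM in DSS mice 1, 7 and 9 and at 10.2, 8.40 and 9.16 CPM in control mice 2, 4 and 8. All DSS values lay above all control values, and both groups were tight (24.1 ± 3.80 against 9.25 ± 0.90, SD, n = 3 each). Its log2 fold change was 1.38 ± 0.23 (SE, adjusted p = 0.137 with edgeR), and with DESeq2 it was 1.44 (adjusted p = 1.64e-05). It was SDE with DESeq2 when any one of the 6 mice was left out, and with edgeR when all 12 libraries shared 1 fit (adjusted p = 0.0398).

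miR-223-3p, abundant in neutrophils and other myeloid cells, was at 38.3, 20.3 and 23.2 CPM in DSS mice and at 9.52, 12.03 and 11.4 CPM in control mice. DSS mouse 1 was the highest, and the groups did not overlap. The log2 fold change was 1.31 ± 0.29 (SE, adjusted p = 0.165 with edgeR) and 1.38 with DESeq2 (adjusted p = 0.00339). It kept the DESeq2 call in 4 of the 6 fits without a mouse and lost it without DSS mouse 9 (adjusted p = 0.0842) and without control mouse 2 (0.127). Its hairpin lies on chromosome X (chrX:96242817-96242926, plus strand).

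miR-139-3p, from an intron of the phosphodiesterase gene Pde2a (chr7:101475376-101475443, plus strand), was at 15.9, 12.1 and 13.4 CPM against 5.75, 9.32 and 7.06 CPM. The groups did not overlap, and the log2 fold change was 0.90 ± 0.26 (SE, adjusted p = 0.246 with edgeR). With DESeq2 it was 0.96 (adjusted p = 0.0443), and that call held in 1 of the 6 fits without a mouse.

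The next miRNAs by unadjusted p among the higher ones were miR-345-5p, miR-181c-5p, miR-500-3p, miR-27a-3p, miR-181a-5p, miR-378d and miR-1941-5p, and none of these was called by either test. miR-345-5p rested largely on DSS mouse 1, at 6.72 CPM against 2.26 and 2.49 CPM in the other DSS mice and 1.27 to 1.71 CPM in controls. Its log2 fold change was 1.33, and 0.68 without mouse 1. miR-181c-5p was at 1.05, and 0.68 without mouse 1. miR-181a-5p and miR-181c-5p share the seed ACAUUCA, as do miR-181b-5p and miR-181d-5p, and all 4 were above 0, by 0.38 to 1.05 on the log2 scale. miR-181a-5p, a lymphocyte miRNA, was at 188, 132 and 154 CPM in DSS mice and 86.4, 97.7 and 123 CPM in controls.

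The strands called lower with DESeq2 were miR-126a-3p, miR-122-5p, let-7i-5p, let-7f-5p, miR-16-5p, miR-374b-5p and miR-215-5p. miR-126a-3p, made from the endothelial gene Egfl7 (chr2:26591357-26591429, plus strand) and also carried by platelets, was at 16.1, 13.4 and 16.1 CPM in DSS mice and at 56.6, 30.8 and 37.5 CPM in controls. The DSS mice were close together and all below the lowest control. The log2 fold change was −1.45 ± 0.28 (SE, adjusted p = 0.165 with edgeR) and −1.41 with DESeq2 (adjusted p = 0.000891). The DESeq2 call was lost without DSS mouse 7 (adjusted p = 0.0525) or 9 (0.109). Its other strand, miR-126a-5p, had 2 to 16 counts in a library and was not tested.

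miR-122-5p, the dominant miRNA of hepatocytes, showed the largest difference of the 484. It was at 10.6, 8.29 and 6.37 CPM in DSS mice and at 15.9, 191 and 88.1 CPM in control mice 2, 4 and 8. The DSS values were close together, while the control values spanned more than their own mean (98.4 ± 88.1 CPM, SD, n = 3), and control mouse 2 lay just above the DSS mice. The log2 fold change was −3.55 ± 0.76 (SE, adjusted p = 0.165 with edgeR) and −3.48 with DESeq2 (adjusted p = 1.64e-05). It was SDE with DESeq2 when any one mouse was left out. With edgeR it was SDE without control mouse 2, the control closest to the DSS mice (−4.01, adjusted p = 0.0058), and with no filter on low counts (−3.51, adjusted p = 3.97e-23). Without control mouse 4, the highest, the log2 fold change was −2.57 (adjusted p = 0.328 with edgeR). miR-122-3p had 0 counts in every blood library.

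The let-7 family, whose members restrain growth and cytokine genes and mark differentiated cells, was mostly lower. Of the 9 strands listed above, all of which were tested, 8 were below 0, 7 had an unadjusted p under 0.05, and 4 did not overlap between groups, with a median log2 fold change of −1.09. With edgeR 0 of the 9 were SDE, and with DESeq2 2 were, let-7i-5p and let-7f-5p. With no filter on low counts edgeR called let-7a-5p, let-7f-5p, let-7g-5p, let-7i-5p and miR-98-5p, among 18 called lower of 1121 tested. Over all 484 miRNAs, 266 (55%) were below 0, 8.68% were lower with an unadjusted p under 0.05, 9.92% were lower without overlap, and the median was −0.05, while DESeq2 called 2.37% of its 295 lower. Summed over the 9 strands, DSS mice carried 35855 to 40319 CPM and control mice 52700 to 103674 CPM, without overlap. Also tested but outside this list were let-7j, at 418 to 640 CPM in DSS mice and 712 to 1277 CPM in controls, and let-7k, at 5.08 to 8.77 and 2.99 to 10.6 CPM.

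let-7i-5p, the most abundant of them and the third most abundant strand in blood, was at 17300, 18247 and 14695 CPM in DSS mice and at 44931, 31969 and 30183 CPM in controls. The groups were well apart. The log2 fold change was −1.09 ± 0.25 (SE, adjusted p = 0.165 with edgeR) and −1.04 with DESeq2 (adjusted p = 0.0103). let-7f-5p was at 1874, 1229 and 996 CPM in DSS mice and at 9987, 3731 and 1748 CPM in controls, where mouse 2 was far above the others. Its log2 fold change was −1.92 ± 0.58 (SE, adjusted p = 0.277 with edgeR) and −1.87 with DESeq2 (adjusted p = 0.0346).

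let-7a-5p was at 3360, 4232 and 3836 CPM in DSS mice and 16968, 7399 and 4280 CPM in controls, with no overlap and a log2 fold change of −1.33. let-7c-5p and let-7e-5p did not overlap either, at −0.88 and −0.92 on the log2 scale, while let-7g-5p (−1.36) and miR-98-5p (−1.51) had one control mouse, number 8, within the DSS range. let-7d-5p, at −0.57, and let-7b-5p had p-values above 0.05. let-7d-5p sat at 5244 to 6436 CPM in DSS mice and 5940 to 12098 CPM in controls, and let-7b-5p at 3799 to 6425 and 3419 to 6734 CPM.

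**Figure D2:**
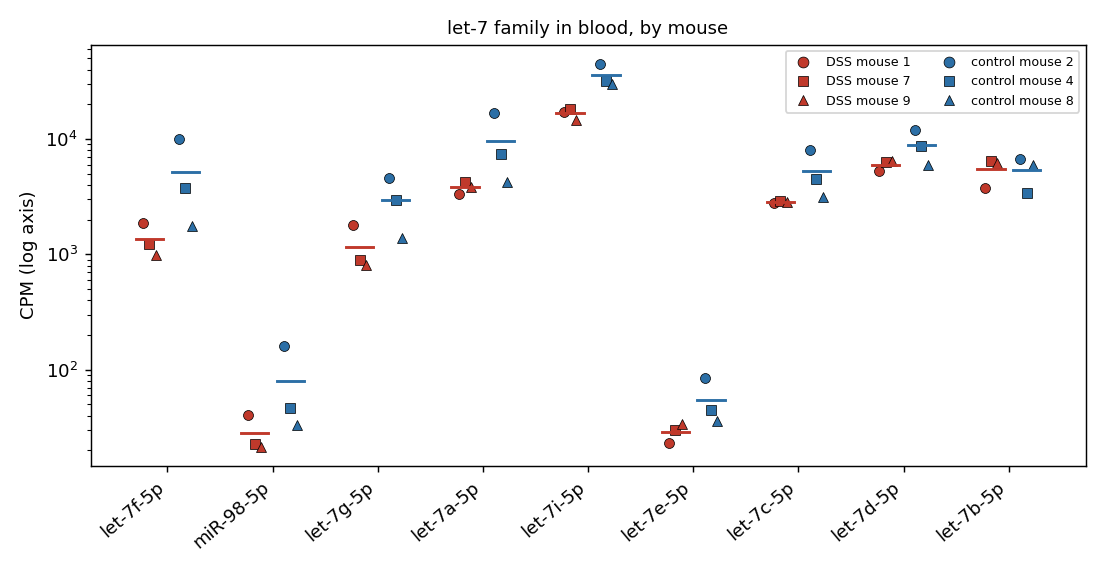
CPM of the 9 let-7 strands in blood, log axis, one point per mouse and a line at the group mean (n = 3 each), ordered by log2 fold change. Control mouse 2 (blue circle) is the highest point for all 9, and let-7b-5p at the right shows no separation.

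The size of the let-7 difference depended on control mouse 2. Without it the median over the 9 strands was −0.45, and 2 of them had an unadjusted p under 0.05. let-7i-5p was then at −0.84, let-7f-5p at −0.96, let-7a-5p at −0.57, let-7g-5p at −0.86, let-7e-5p at −0.42, let-7c-5p at −0.38, let-7d-5p at −0.24 and miR-98-5p at −0.45 on the log2 scale. The DESeq2 calls of let-7i-5p and let-7f-5p each held in 3 of the 6 fits without a mouse. They were lost without control mouse 2 (adjusted p = 0.452 and 0.997), DSS mouse 7 (0.0958 and 0.143) or DSS mouse 9 (0.835 and 0.888). Under each way of scaling the libraries that was tried, 8 of the 9 strands were below 0. With total counts alone 3 of the 9 had an unadjusted p under 0.05 and the median was −0.85, and with total counts without miR-486a-5p and miR-486b-5p these were 5 and −0.79. The 9 strands come from many loci. let-7a-5p, let-7f-5p and let-7d-5p share the lincRNA 6720427I07Rik on chromosome 13, with the hairpins at chr13:48538179-48538272, chr13:48537829-48537917 and chr13:48536012-48536114 on the minus strand, and let-7f-5p and miR-98-5p also come from introns of Huwe1 on chromosome X (chrX:151912346-151912428 and chrX:151913214-151913321, plus strand).

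miR-16-5p, which slows the cell cycle and is abundant in red cells, was at 365, 312 and 270 CPM in DSS mice and at 984, 684 and 477 CPM in controls. The groups did not overlap, with a log2 fold change of −1.18 ± 0.29 (SE, adjusted p = 0.236 with edgeR) and −1.13 with DESeq2 (adjusted p = 0.0346). That call held in 2 of the 6 fits without a mouse. Of the 6 tested strands with its seed AGCAGCA, 4 were below 0 and 2 had an unadjusted p under 0.05, miR-16-5p and miR-195a-5p (−0.61), with a median of −0.35, beside 55% below 0 and 8.68% lower with such a p over all 484. Without DSS mouse 9 and without control mouse 4, 3 were below 0 and the medians were −0.16 and −0.17, and without DSS mouse 1 all 6 were below 0. With total counts alone 3 were below 0, 1 had an unadjusted p under 0.05, and the median was −0.10, with miR-195a-5p at −0.37. RLE and upper-quartile factors also left 1 with such a p. miR-15a-5p and miR-15b-5p, which lie beside the hairpins of miR-16-5p, overlapped between the groups, at 14.6 to 27.7 and 203 to 248 CPM in DSS mice and 15.4 to 18.7 and 161 to 312 CPM in controls.

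miR-374b-5p, from an intron of Ftx, a noncoding RNA gene of the X-inactivation center (chrX:103573060-103573154, minus strand), was at 30.3, 49.0 and 40.3 CPM against 170, 79.0 and 75.0 CPM. Control mouse 2 was again the highest. The log2 fold change was −1.44 ± 0.37 (SE, adjusted p = 0.237 with edgeR), −1.40 with DESeq2 (adjusted p = 0.0185), and −0.90 with edgeR without control mouse 2. The DESeq2 call held in 2 of the 6 fits without a mouse. miR-5123, from an intron of B4galt1, was at 0.58 to 1.06 CPM in DSS mice and 1.76 to 2.99 CPM in controls (−1.64 ± 0.34, SE, adjusted p = 0.165 with edgeR) and had as few as 23 counts in a library.

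The strands of one precursor could be set against each other within a library, where scaling plays no part. For this, chosen after the values had been seen, 13 hairpins of the let-7 and miR-15/16 families and of the DESeq2 calls were taken for which both strands had been tested. Mirlet7c-2, whose 3p strand has the same sequence as that of Mirlet7a-1, was left out. The ratio of 5p to 3p counts had all its DSS values below all its control values for 5 of the 13, each with an adjusted p of 0.26 over the 13 (exact permutation test). As the hairpins were picked for strands already called or lower in these libraries, the ratios in part repeat those values and are no independent evidence. Over the 106 pairs of tested 5p and 3p strands with one stem name, lower ratios without overlap were found for 14 (13.2%) and higher ones for 6 (5.66%). The median difference was −0.11 on the log2 scale. These pairs include some of the picked hairpins, such as Mirlet7i and Mir223. For Mirlet7i the log2 ratio was 11.3, 12.1 and 10.9 in DSS mice and 13.4, 12.4 and 13.7 in controls, a difference of −1.73 (exact permutation test, two-sided, p = 0.1, the smallest that 3 against 3 allows). let-7i-3p itself was at 4.10 to 7.57 CPM in DSS mice and 2.20 to 6.10 CPM in controls, overlapping, with a higher mean in DSS mice (6.20 against 4.13 CPM).

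Mir16-2 gave 5.95, 6.80 and 6.61 against 8.86, 10.2 and 7.40, a difference of −2.38 (exact permutation p = 0.1), with as few as 10 counts of its 3p strand in a library. miR-16-5p also comes from Mir16-1, where the ratio overlapped between groups, with a difference of −1.89 (exact permutation p = 0.2). For Mir223 the ratio was −2.86, −2.82 and −3.69 in DSS mice and −0.40, −1.08 and −1.34 in controls, a difference of −2.18 (exact permutation p = 0.1). The strands differed in direction, with miR-223-3p above and miR-223-5p below the controls on average (5.26, 2.87 and 1.80 against 7.23, 5.70 and 4.48 CPM, overlapping). Mir139 differed by −0.50 and Mir195a by −1.03, both without overlap (exact permutation p = 0.1 for each), and without control mouse 4 the difference for Mir195a was −0.65. The ratios of Mirlet7a-1, Mirlet7f-1, Mirlet7d, Mirlet7b, Mir15a, Mir15b and Mir322 overlapped.

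**Figure D3:**
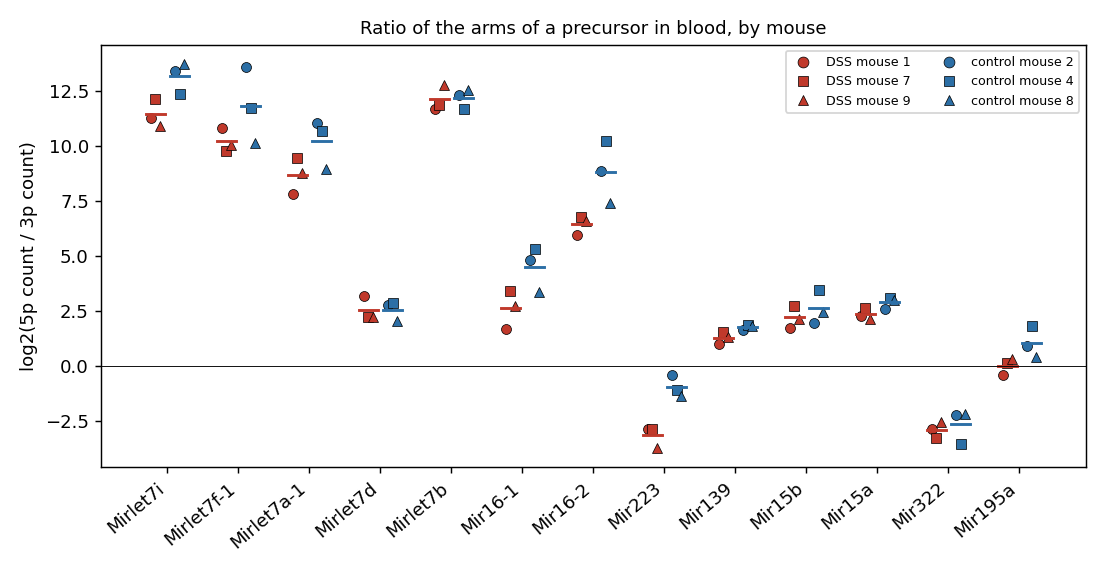
Log2 ratio of 5p to 3p counts for 13 hairpins, one point per mouse and a line at the group mean (n = 3 each), with 0 marking equal counts. The DSS points lie below all control points for Mirlet7i, Mir16-2, Mir223, Mir139 and Mir195a and overlap them for the other 8.

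Blood cell lists were next. Of 7 erythroid strands 2 were above and 5 below 0, 0 had an unadjusted p under 0.05 with edgeR, 0 were SDE with DESeq2, and the median was −0.23. Over all 484, 55% were below 0 and the median was −0.05. Without DSS mouse 1 all 7 were below 0 and 2 had such a p, and without control mouse 4, 2 were below 0 (median 0.06). The tally also turned with the scaling. With total counts alone 2 were below 0 (median 0.03, beside 0.15 over all tested). With total counts without miR-486a-5p and miR-486b-5p 2 were as well (median 0.04, beside 0.21). miR-451a, which matures without Dicer and is needed for red cell development, was at 5915, 9890 and 7775 CPM in DSS mice and 10005, 11975 and 12843 CPM in controls, without overlap (log2 fold change −0.56, adjusted p = 0.42 with edgeR, and −0.34 without DSS mouse 1). As a percentage of the total count it overlapped, at 0.79% to 0.93% in DSS mice and 0.88% to 1.54% in controls. With total counts without miR-486a-5p and miR-486b-5p its log2 fold change was −0.32. miR-486a-5p and miR-486b-5p overlapped. miR-144-5p, processed from the same primary transcript as miR-451a, varied within groups, at 782, 45.0 and 86.1 CPM in DSS mice and 427, 63.8 and 149 CPM in controls, with mice 1 and 2 the highest.

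Of the 4 myeloid strands only miR-223-3p, which was higher, had an unadjusted p under 0.05, beside 2.89% higher with such a p over all 484. Without DSS mouse 1, 2 others were lower with such a p. miR-142a-5p, found in all blood lineages and the most abundant of the list, was at 5409, 4552 and 5628 CPM in DSS mice and 5154, 3083 and 5182 CPM in controls, so the groups overlapped. Of the 6 lymphocyte strands 4 were above 0, miR-181a-5p had an unadjusted p under 0.05, and miR-181a-5p and miR-181b-5p did not overlap, with a list median of 0.36, beside 2.89% higher with such a p and 7.44% higher without overlap over all 484. Without control mouse 2, 0 of the 6 were higher with an unadjusted p under 0.05, and without control mouse 4, 2 were. With upper-quartile factors 3 were (median 0.48), with total counts without miR-486a-5p and miR-486b-5p also 3 (0.64), and with total counts alone 0 (0.62). The medians over all tested were then 0.06, 0.21 and 0.15. miR-150-5p, abundant in mature lymphocytes, was at 75.6 to 106 CPM in DSS mice and 71.0 to 132 CPM in controls.

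Of 8 miRNAs known to respond to inflammation, 7 were tested (miR-212-3p had 0 to 6 counts) and the median was −0.03. miR-146b-5p, a brake on Toll-like receptor signaling, was the only one with an unadjusted p under 0.05 (2 were lower with such a p without DSS mouse 1) and was lower, at 43.7, 43.7 and 45.0 CPM in DSS mice and 74.4, 64.9 and 60.4 CPM in controls (log2 fold change −0.59, adjusted p = 0.36 with edgeR). Over all 484, 8.68% were lower with such a p. With upper-quartile factors, a GC offset, or total counts with or without miR-486a-5p and miR-486b-5p, 0 of the 7 were. The log2 fold change of miR-146b-5p was −0.36 with total counts alone and −0.30 with total counts without those strands. miR-146a-5p, of the same seed, was at 31.5 to 58.3 CPM in DSS mice and 25.4 to 41.7 CPM in controls. miR-155-5p, induced in activated leukocytes, was at 1.29 to 1.46 CPM against 0.98 to 1.22 CPM, and miR-21a-5p at 1204 to 2189 CPM against 1668 to 2500 CPM.

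All 9 strands listed for gut epithelium were below 0 in DSS blood with TMM factors (median −0.26, beside 55% of all 484 miRNAs below 0), and 3 of them had an unadjusted p under 0.05 and did not overlap (8.68% and 9.92% of all 484 in that direction). These values depended on the scaling and on single mice. With total counts alone 6 of the 9 were below 0 (median −0.13, beside 0.15 over all tested), with total counts without miR-486a-5p and miR-486b-5p 5 were (median −0.01, beside 0.21), and 0 were lower with an unadjusted p under 0.05 with edgeR either way. Without DSS mouse 7 and without control mouse 8 there were also 6 below 0 (medians −0.13 and −0.05), without control mouse 4 there were 8 (median −0.45), and 3 were lower with an unadjusted p under 0.05 without each of the 6 mice in turn. miR-215-5p was at 21.1, 26.4 and 18.9 CPM in DSS mice and 36.5, 43.1 and 40.5 CPM in controls, a log2 fold change of −0.85 ± 0.23 (SE, adjusted p = 0.246 with edgeR) and −0.80 with DESeq2 (adjusted p = 0.0485). That call was lost in each of the 6 fits without a mouse. miR-194-5p, which lies beside miR-215-5p on chromosome 1 (chr1:185313319-185313385 and chr1:185313581-185313692, plus strand), was at 36.7, 37.7 and 37.1 CPM against 57.6, 76.5 and 57.5 CPM (−0.78). miR-196b-5p, from the Hoxa9 locus and also active in blood stem cells, was at 4.56, 4.80 and 5.22 CPM against 8.40, 8.23 and 8.99 CPM (−0.81). These groups were tight and apart. miR-192-5p, which has the seed of miR-215-5p and lies beside the other miR-194-5p hairpin on chromosome 19, was at 423 to 522 CPM in DSS mice and 474 to 543 CPM in controls. The low end of the list was at the limit of depth, with miR-141-3p and miR-429-3p at 1.02 CPM or less.

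Of 6 muscle strands 4 were below 0 and 1 was lower with an unadjusted p under 0.05, miR-1a-3p, whose groups overlapped. Over all 484, 55% were below 0 and 8.68% lower with such a p. With RLE, upper-quartile or total-count scaling, limma or a GC offset, 0 of the 6 had such a p. The list median was −0.30, and −0.97 without DSS mouse 7. Without control mouse 2 it was 0.94, with 2 strands higher at an unadjusted p under 0.05. The skeletal muscle strand miR-206-3p was at 30.8 CPM in DSS mouse 7 and 19.0 CPM in control mouse 2 and at 0.20 to 2.58 CPM in the other 4 mice. miR-133a-3p was highest in the same 2 mice, at 15.9 and 23.3 CPM against 1.21 to 8.91 CPM. The part of muscle RNA in the values of control mouse 2 was not tested.

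Of 12 strands of the miR-17-92 cluster and its paralogs, which drive proliferation of blood progenitors, 7 were below 0 (median −0.28), 4 had an unadjusted p under 0.05 and were lower without overlap, and 1 was higher with overlap. Of all 484 miRNAs 55% were below 0, 8.68% had an unadjusted p under 0.05 and were lower, and 9.92% were lower without overlap. With total counts alone 7 of the 12 were below 0 and 0 of these had an unadjusted p under 0.05 with edgeR. Without control mouse 2 the median was −0.15 and 2 were lower with such a p, without DSS mouse 9 also 2, and without DSS mouse 1 there were 10 below 0 (median −0.19). miR-20a-5p was at 38.1, 30.2 and 20.7 CPM in DSS mice and 81.4, 50.6 and 56.5 CPM in controls (−1.08), miR-17-5p at 117, 143 and 128 against 211, 249 and 154 CPM (−0.66, and −0.43 without control mouse 4), and miR-363-3p at 12.8, 10.1 and 11.1 against 24.1, 19.7 and 16.8 CPM (−0.84). The fourth was miR-20b-5p, at no more than 1.80 CPM. miR-17-5p and miR-20a-5p share the primary transcript Mir17hg on chromosome 14 with miR-19a-3p, the higher one, which rested on DSS mouse 1 (6.64 CPM against 0.81 to 1.20 CPM in the other 5 mice) and was at 1.68 with that mouse and 0.29 without it on the log2 scale. The abundant miR-92a-3p of that transcript overlapped, at 12471 to 23001 against 20079 to 25931 CPM. A last list of 5 held miR-149-5p, miR-139-3p and miR-374b-5p with their relatives miR-139-5p and miR-374c-5p (0 to 5 counts, not tested), and as it was built around calls made on these libraries its count of 3 above and 1 below 0 (median 0.64) is no independent evidence. The 3 miR-29 strands (median 0.22) and the 5 miR-30 strands (−0.15) had 0 members with an unadjusted p under 0.05 with edgeR and 0 SDE with DESeq2.

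**Figure D4:**
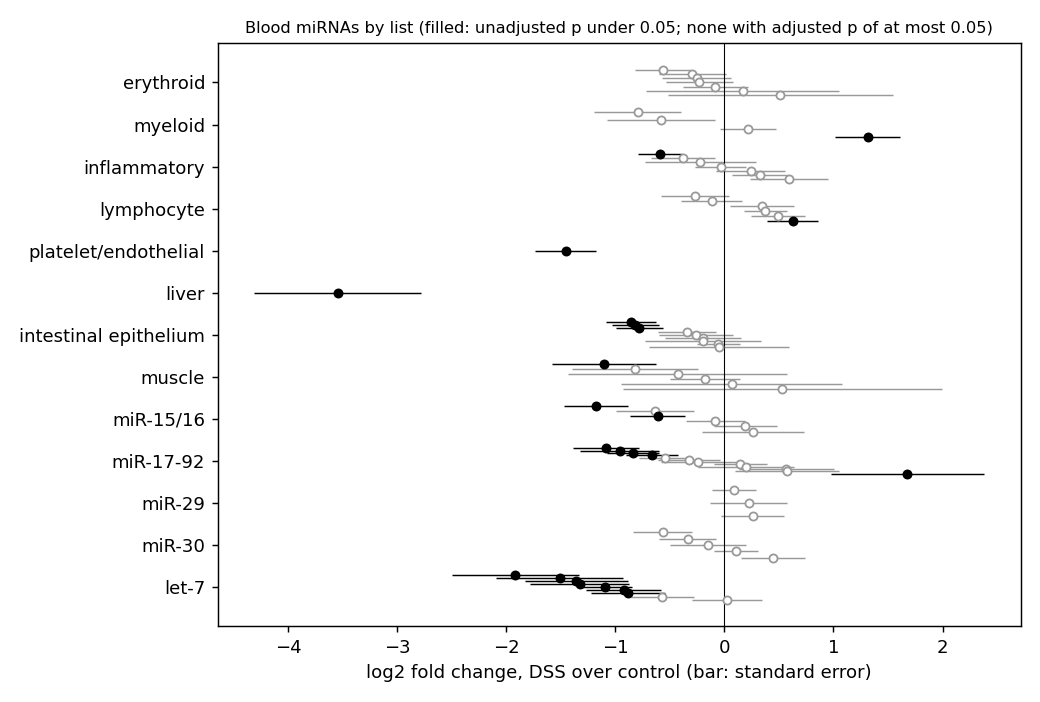
Log2 fold change in blood (DSS over control, edgeR with TMM factors, n = 3 each) of every tested strand of 13 lists, with its standard error as a bar and filled points for an unadjusted p under 0.05. The let-7 strands and the 9 gut epithelium strands lie mostly or wholly left of 0, while the erythroid, miR-29 and miR-30 lists hold no filled point.

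Colon of the same mice was used to ask whether the response to DSS differed between the tissues. The colon values come from the same animals and are not a second set of mice. The interaction of tissue and DSS was tested over 680 miRNAs, and edgeR called 0 (smallest adjusted p = 0.142), with 94 at an unadjusted p under 0.05 (13.8%), while DESeq2 called 37 of 421 (8.79%). With the mouse as a block edgeR called 1, miR-148a-3p (0.147%). miR-126a-3p had the smallest p, with log2 fold changes of −1.45 in blood and 0.41 in colon and an interaction of −1.54 ± 0.37 (SE, adjusted p = 0.142 with edgeR and 3.95e-09 with DESeq2). In colon it was at 6719 to 7211 CPM in DSS mice and 5044 to 5452 CPM in controls, without overlap in the other direction. The interactions were scaled over all 12 libraries and the fold changes within each tissue, so an interaction is not the difference of the printed fold changes. With all 12 libraries in 1 fit miR-126a-3p was at −1.16 in blood, and the median over all tested was 0.18.

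let-7i-5p (−1.09 in blood and 0.13 in colon), miR-122-5p (−3.55 and 1.03), miR-374b-5p (−1.44 and 0.40) and miR-149-5p (1.38 and 0.30) had an adjusted interaction p of 2.5e-05, 0.00332, 0.0007 and 0.00602 with DESeq2 and of 0.31, 0.153, 0.23 and 0.178 with edgeR. The colon value of miR-122-5p rested on DSS mouse 1, and the groups overlapped (adjusted p = 0.433 with edgeR). It was at 104, 25.5 and 8.28 CPM in DSS mice 1, 7 and 9 and at 15.0, 15.9 and 36.6 CPM in controls. miR-223-5p was at −0.80 in blood (−1.24 without DSS mouse 1 and −0.47 without DSS mouse 9) and 1.82 in colon, an interaction of −2.18 (adjusted p = 0.142 with edgeR and 2.5e-05 with DESeq2), while miR-223-3p was at 1.31 and 1.93 and its interaction was −0.25 (adjusted p = 0.908 with edgeR). miR-148a-3p was at 0.49 in blood (0.16 without DSS mouse 1 and 0.78 without DSS mouse 7) and −1.28 in colon, an interaction of 2.10 (adjusted p = 0.142 with edgeR, 0.0457 with the block). miR-215-5p, miR-194-5p and miR-196b-5p were below 0 in both tissues, at −0.73, −1.08 and −0.67 in colon.

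**Figure D5:**
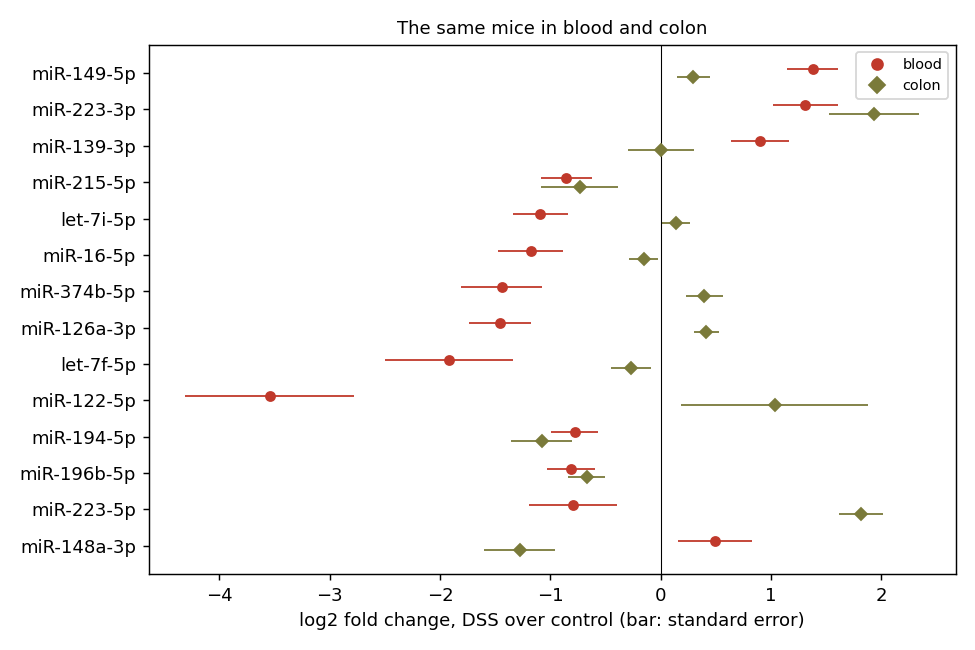
Log2 fold change (DSS over control, edgeR, standard error as a bar, n = 3 each) in blood (circles) and colon (diamonds) of the same mice, for the 10 miRNAs SDE in blood with DESeq2 and 4 others named in the text. miR-126a-3p lies at −1.45 in blood and 0.41 in colon, while miR-223-3p lies right of 0 in both and miR-215-5p left of 0 in both.

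The median GC content of the 7 strands called lower with DESeq2 was 40.9%, that of the 3 called higher 60.9%, and that of all 484 tested 50%. miR-223-3p, among those called higher, had a GC content of 40.9%, equal to the median of those called lower. Across the 484 miRNAs, which are not independent and share libraries, the log2 fold change had a Spearman rho of 0.14 and a Pearson r of 0.15 with GC content. The slope of log2 CPM on GC content was 0.047 ± 0.106 per 10 points of GC in DSS libraries and −0.047 ± 0.133 in control libraries (SD, n = 3 each), a difference of 0.094 (exact permutation test, two-sided, p = 0.4), which was 0.021 without control mouse 2 and 0.156 without DSS mouse 1. With an offset for GC content, 8 of the 9 let-7 strands were below 0 with a median of −0.93.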

How the data were processed

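Small RNA from whole blood (collected in RNAprotect tubes) was sequenced by the study. The authors deposited the count of each mature miRNA per library, made by trimming with Flexbar, collapsing with fastx-toolkit and the quantifier of miRDeep2 on miRBase, and a normalized signal, which is the count divided by a DESeq2 size factor (the submitters' processing notes name DESeq2 and GRCm38). Depth covers counting error only, since no molecular identifiers are named, and p-values set the difference between groups against the spread between these animals. With the same mice, adjusted p-values also changed with the filter on low counts.

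The main test was that of edgeR (4.0.16, R 4.3.3): filterByExpr, TMM, glmQLFit and glmQLFTest in blood alone without covariates, Benjamini-Hochberg adjusted. DESeq2 (1.42.0) was the alternative. Standard errors of log2 fold changes were taken from these and the F statistic, as their size over its root. CPM uses TMM factors of the blood libraries, or of the colon libraries for colon. Other alternatives were RLE, upper-quartile and total-count scaling, filters, limma (3.58.1) on log2(normalized signal + 1), a GC offset, each mouse left out and the label grouping.

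The interaction used all 12 libraries. Mouse numbers in the titles link blood and colon of one animal. The deviations of a mouse from its group mean in the tissues had a mean correlation of −0.063 over 357 miRNAs. Named miRNAs are the members of 14 lists, the 10 higher and 10 lower with the smallest p, and the DESeq2 calls. Members and lists were chosen with earlier results of these data known, and one list of 5 was built around calls made on these libraries. miR-148a-3p, the arm ratios and their strands, and the repeats of list counts under other scalings and without each mouse were chosen after their values were seen. Of 88 names looked up, 75 matched a RefSeq mature strand, and hairpin positions are RefSeq's on GRCm38.p6 with GENCODE annotation. edgeR was tested on simulated counts with 4-fold changes in 200 of 480 miRNAs, recovered 96% with 4 false calls, and called 0 when nothing had been changed. The strands called with DESeq2, other than miR-122-5p, changed less than 4-fold, so the 96% does not give the share of such changes that edgeR would find. miR-122-5p changed more and was still not called (adjusted p = 0.165 with edgeR). Figures were drawn with matplotlib.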

Additional observations from a re-analysis of the deposited data

How the results depend on the processing

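Depth limits strands of a few counts. With edgeR 0 miRNAs were called SDE and higher, and 0 SDE and lower, in blood. DESeq2 gave 3 and 7, no filter on low counts gave 7 and 18, and all 12 libraries in 1 fit gave 1 higher. Leaving out each mouse gave 0 to 1 lower with edgeR, and 1 to 3 higher and 1 to 11 lower with DESeq2. The cause of these shifts was not tested. The 31 blood fold changes recomputed all kept their direction under every alternative but the label grouping. Interaction calls went from 0 to 37 with DESeq2, to 27 with no filter, to 1 with the mouse as replicate block, and to 0 to 2 without each mouse, 2 being the count without mouse 1. No other result was run with a block, since nothing pairs DSS with control mice in blood.

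With the label grouping, log2 fold changes turned to −0.16 (miR-149-5p), −0.070 (miR-139-3p), −0.13 (miR-181a-5p), 1.17 (let-7a-5p), 0.80 (let-7c-5p), 0.47 (let-7d-5p), 0.61 (let-7e-5p), 1.97 (let-7f-5p), 1.61 (let-7g-5p), 0.58 (let-7i-5p), 1.69 (miR-98-5p), 1.08 (miR-122-5p), 0.63 (miR-126a-3p), 0.94 (miR-16-5p), 0.36 (miR-195a-5p), 0.77 (miR-374b-5p), 0.23 (miR-215-5p), 0.37 (miR-194-5p), 0.15 (miR-196b-5p), 0.66 (miR-20a-5p), 0.44 (miR-17-5p), 0.58 (miR-363-3p), 0.75 (miR-5123), 0.30 (miR-146b-5p) and 0.98 (miR-223-5p), all with an adjusted p of 0.95 or more with edgeR. DESeq2 then called 1 higher and 0 lower, and the GC slope differed by −0.11. The differences in arm ratio turned to 0.094 (Mirlet7i), 2.04 (Mirlet7f-1), 0.79 (Mirlet7a-1), 0.78 (Mirlet7d), 0.78 (Mir16-1), 1.41 (Mir16-2), 1.17 (Mir223), 0.063 (Mir15a) and 0.49 (Mir195a).

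Without each mouse, the differences in arm ratio that changed sign were those of Mirlet7d (−0.34 to 0.15), Mirlet7b (−0.40 to 0.14) and Mir15b (−0.75 to 0.0021).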
